A study of Mus musculus with 26 samples.

Results

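The 42 genes described here encode the machinery of cell division: the kinases and cyclins that start mitosis, the proteins of centromere and kinetochore, the spindle checkpoint, the spindle motors, the anaphase-promoting enzymes and the proteins of cytokinesis. They were taken by symbol from a fixed list of 42 names, and all 42 were found among the 21761 genes of both deposited count tables. Their levels were followed in polyadenylated RNA of mouse CD4+ T cells, in 26 libraries of 10 groups that belong to a study of vitamin C and of the TET enzymes, which oxidise 5-methylcytosine in DNA. All mice were C57BL/6, and cells came from spleen and lymph nodes.

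The groups differed in mice, agents and sorting. In the cultures, cells of Foxp3-eGFP reporter mice aged 5 to 6 weeks were differentiated from naive CD4+ T cells with TGFβ, RA (retinoic acid) and VitC (vitamin C) together (TGF+RA+VC, n = 2), with TGFβ and RA (TGF+RA, n = 2), with TGFβ and VitC (TGF+VC, n = 2) or with TGFβ only (TGF, n = 2), which gives induced Treg cells (iTreg). Th0 cells (n = 2) were activated with anti-CD3/CD28, and naive cells (n = 2) were sorted as CD4+eGFP-CD25-CD62LhiCD44lo. Ex vivo Treg cells were CD4+eGFP+ cells of mice aged 3 weeks: Tet2/3-deficient cells carried Tet2fl/fl Tet3fl/fl Foxp3-eGFP and CD4-Cre (n = 4), and control Treg cells carried the same floxed alleles and reporter without Cre (n = 4). CD4-Cre acts in T cells from the CD4-expressing thymocyte stage on, so the deletion is not limited to Treg cells. In the restimulation experiment, with reporter mice aged 12 to 14 weeks, TGFβ iTreg cells were restimulated with anti-CD3/CD28, and those that were Foxp3-negative on day 6 of restimulation were sorted (restimulated Foxp3-negative, n = 3), and were compared with TGFβ iTreg cells sorted as Foxp3-positive at day 6 (TGF day 6 Foxp3-positive, n = 3). The labels do not say whether replicates were separate animals or cultures, so p-values measure the spread between these samples, which may be technical.

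As background, the mitotic genes are switched off in resting lymphocytes and switched on together late in the cell cycle. In resting cells the DREAM complex, which holds the pocket protein p130 (encoded by Rbl2), sits on their promoters. It binds there at a short element called the cell cycle genes homology region (CHR). In cycling cells B-Myb (Mybl2) and FoxM1 (Foxm1) act at the same element. The NF-Y factor binds CCAAT letters in many of the same promoters. Antigen receptor stimulation takes naive T cells from quiescence into rapid division, and Treg cells of the body are divided between resting and cycling cells.

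Among the 42 genes, 35 matched an entry in the RefSeq promoter table (build GRCm38.p6, 250 bases before to 50 after the start). The entries were searched on both strands for the CHR letters TTTGAA and TTCGAA, of which the second reads the same on both strands, and for CCAAT, read as ATTGG on the other strand. CHR letters were in 27 of 35 genes (77.1%), against 21.7% of the 27025 genes in the table and 19.4% of its 16524 genes that are also in the count tables. CCAAT was in 27 of 35 (77.1%), against 41.1% of all genes and 42.4% of those in the count tables. Both were in 24 of 35 (68.6%), against 9.65% and 9.07%. The E2F letters TTTCCCGC, TTTCGCGC, TTTGCCGC and TTTGGCGC were in 1 of 35, Cdk1 (2.86%), against 2.6% of all genes. None of these letters was in the entries of Birc5, Mad2l1, Nuf2, Nusap1 and Pttg1, which says only that the letters are not in these windows. A match is a description of the letters and not a bound site.

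The 100 bases before the start are shown for 6 members. In Cdk1, Cdc20, Ube2c and Top2a the culture group means had the order of the summed level of all members. Top2a was nevertheless not called changed in several comparisons. The other pair is Bub3 and Pttg1. The group means of Bub3 had this order too, but its changes between these groups were smaller than those of the median member. Pttg1 did not have this order. Each stretch runs 5′ to 3′ on the strand of its gene, with CHR and CCAAT letters in capitals.
Cdk1 (chr10:69352913-69353012, minus strand): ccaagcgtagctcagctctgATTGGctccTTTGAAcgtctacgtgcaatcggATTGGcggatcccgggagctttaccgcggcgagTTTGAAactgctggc
Cdc20 (chr4:118437344-118437443, minus strand): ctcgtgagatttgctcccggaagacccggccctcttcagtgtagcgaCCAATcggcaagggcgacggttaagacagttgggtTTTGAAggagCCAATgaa
Ube2c (chr2:164769829-164769928, plus strand): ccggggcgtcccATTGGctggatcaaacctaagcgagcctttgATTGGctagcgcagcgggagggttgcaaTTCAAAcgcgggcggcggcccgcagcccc
Top2a (chr11:99024190-99024289, minus strand): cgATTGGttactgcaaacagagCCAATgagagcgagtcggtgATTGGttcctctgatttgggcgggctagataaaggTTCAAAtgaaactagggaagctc
Bub3 (chr7:131560270-131560369, plus strand): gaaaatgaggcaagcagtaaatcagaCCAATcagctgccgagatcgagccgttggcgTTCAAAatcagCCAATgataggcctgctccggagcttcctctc
Pttg1 (chr11:43425982-43426081, minus strand): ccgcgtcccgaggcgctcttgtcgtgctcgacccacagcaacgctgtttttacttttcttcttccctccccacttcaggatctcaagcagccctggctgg
Cdk1 carried 2 CHR and 2 CCAAT matches in this stretch, Top2a 1 and 3, and Cdc20, Ube2c and Bub3 1 and 2 each. Bub3, whose transcripts varied less than those of Ube2c, held the same kinds of letters, and Pttg1 held none.

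Library totals were 9647669 to 11640223 counts in the culture and naive libraries, 13397602 to 17672302 in the ex vivo Treg libraries and 11293704 to 17219805 in the restimulation libraries, and the only member at 0 counts in any library was Cdc25c, in 1 naive library. The labelled cells carried their defining transcripts: Cd3e averaged 333 to 551 CPM (counts scaled to a common library total) and Cd4 605 to 1135 CPM in every group, and Foxp3 averaged 325 to 944 CPM in the iTreg and ex vivo Treg groups, against 15.3 to 26.2 CPM in restimulated Foxp3-negative, Th0 and naive cells. Among the ex vivo Treg libraries, control S1 and S3 stood apart from control S2 and S4 in the summed level of the members, as described below. Library numbers S1 to S8 are those of the deposited columns and match no single sample label. Annotated spans of 8 members (Anln, Aurka, Ccna2, Cdc20, Cenpk, Kif20a, Nusap1 and Prc1) overlap another gene of the count tables. The kit marks strand, but whether the counting used it is not given in the sources used here, so reads of such pairs may be shared.

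The summed level of the 42 genes differed most between resting and activated cells. It was 4891 and 4563 CPM in TGF+RA+VC, 6119 and 5864 in TGF+RA, 7657 and 6117 in TGF+VC, 9215 and 7997 in TGF, 10033 and 10070.1 in Th0 and 394 and 395 in naive libraries. Within the cultures the order of the means from low to high was TGF+RA+VC, TGF+RA, TGF+VC, TGF and Th0, and the only neighbours whose ranges met were TGF+RA and TGF+VC, with 6119 and 6117 CPM in 1 library each. Ex vivo, Tet2/3-deficient Treg libraries S5 to S8 held 2764, 2800.2, 2527 and 2361 CPM, against 1796, 894, 1736 and 787 CPM in control Treg libraries S1 to S4. In the second table, restimulated libraries held 3556, 4314 and 2839 CPM, against 5879.9, 5159.9 and 4969.6 CPM in TGF day 6 libraries. In bulk RNA, fewer dividing cells and less of these RNAs per cell cannot be told apart.

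**Figure D1:**
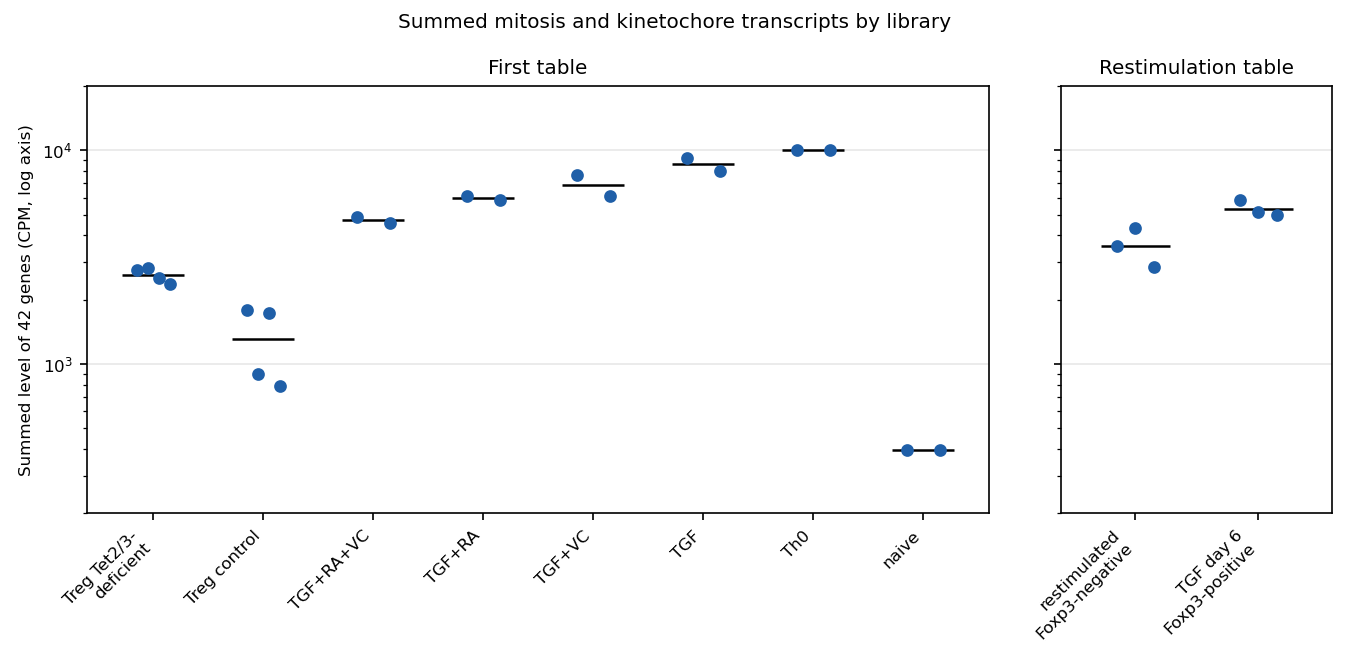
Summed level of the 42 genes in CPM (log axis) in each library, by group, with points for libraries and bars for group means. Th0 cells lie near 10052 CPM and naive cells near 394 CPM, the 4 Tet2/3-deficient Treg libraries lie above all 4 control Treg libraries, and the restimulated libraries lie below all TGF day 6 libraries.

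Per length, in FPKM as deposited, the median member averaged 25.8 in TGF+RA+VC, 35.8 in TGF+RA, 36.5 in TGF+VC, 52.5 in TGF, 63.3 in Th0 and 0.789 in naive cells. It was 14.9 in Tet2/3-deficient and 6.17 in control Treg cells, and 19.7 in restimulated and 36.8 in TGF day 6 cells. Top2a, the topoisomerase that untangles sister chromatids, and Ube2c, the ubiquitin-conjugating partner of the anaphase-promoting complex, were the 2 most abundant members in the activated cultures, with 290.5 ± 19.98 and 305 ± 28.1 FPKM in Th0 cells (SD, n = 2). In naive and control Treg cells the highest member was Bub3, a mitotic checkpoint protein that also has roles outside mitosis, with 75.8 ± 6.98 FPKM in control Treg (SD, n = 4) and 56.2 ± 7.17 FPKM in naive cells (SD, n = 2). In Tet2/3-deficient Treg cells it was Cdc25b, a phosphatase that activates CDK1, with 91.9 ± 7.70 FPKM (SD, n = 4). Cenpk, a subunit of the inner kinetochore, was the lowest member in Th0 cells, at 8.05 ± 0.0266 FPKM (SD, n = 2). It was also the lowest in the TGF, TGF+VC, TGF+RA, TGF+RA+VC and TGF day 6 groups. In restimulated cells the lowest member was Cenpf, with a mean of 2.39 FPKM.

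Th0 against naive cells asks how activation changes the members, and by median log2 fold change it was the largest of the 11 differences between groups. By quasi-likelihood test (edgeR, p adjusted after Benjamini and Hochberg over every gene tested), 41 members rose and 1 fell, with a median log2 fold change of 6.33; over all 11287 genes tested, 72% were called, 35.7% higher and 36.4% lower, and the median log2 fold change was -0.01. Cdk1, the kinase that drives entry into mitosis, had 269.9 and 256 CPM in Th0 libraries, against 2.42 and 2.07 CPM in naive libraries. Aurkb, the kinase of the chromosomal passenger complex, had 198 and 187 CPM, against 0.705 and 1.04 CPM in naive cells. For both genes every Th0 library lay far above every naive library, with log2 fold changes of 6.83 ± 0.16 and 7.74 ± 0.21 (SE, as for every log2 fold change given here; edgeR adjusted p = 4.77e-14 and 1.68e-13).

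Mki67, which encodes the Ki-67 coat protein of mitotic chromosomes, had 998 and 1002 CPM in Th0 and 5.74 and 9.54 CPM in naive libraries, 128-fold higher. Plk1, a kinase of centrosome and kinetochore, Bub1, a checkpoint kinase, and Birc5, the passenger protein survivin, rose 112-fold, 111-fold and 114-fold, and Ccna2, cyclin A2, rose 184-fold. Cdc25c, another CDK1-activating phosphatase, had 272 and 243 counts in the Th0 libraries and 0 and 1 counts in the naive libraries, a ratio of summed counts per total of 496 with an exact 95% interval of 88.6 to 1.96e+04 that covers counting error only. At the other end, Bub3 rose 2.00-fold, to 240.1 and 232 CPM in Th0 against 126 and 105 CPM in naive cells, and Cdc25b rose 6.02-fold. The lowest change was that of Pttg1, securin, the inhibitor of the protease that opens cohesin: it had 17.6 and 14.6 CPM in Th0 libraries, against 26.2 and 30.5 CPM in naive libraries, and fell 1.80-fold (-0.85 ± 0.13, edgeR adjusted p = 3.30e-05). Under all alternatives run, 41 members were called higher and 1 lower. Summed erythroid markers (4 genes) were 96.99 to 135 CPM in Th0 libraries, against 1.11 to 2.28 CPM in naive libraries with Hbb-b1 at 0, and their part in the result was not tested.

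By role, the median log2 fold change was largest for the spindle motors and assembly factors (6.84, 5 genes) and the mitotic kinases and cyclins (6.82, 8 genes), and smallest for cytokinesis (5.03, 6 genes). Related lists moved with the members to different degrees. All 32 other kinetochore and centromere genes rose (median 3.94), led by Ska1 (6.88 ± 0.28) of the Ska complex, and all 36 DNA replication genes rose (median 3.10), led by Mcm10 (7.07 ± 0.25). Of 17 condensin and cohesin genes 12 rose and 2 fell, with the condensin subunits Ncapg (6.74 ± 0.15) and Ncapg2 (5.92 ± 0.19) changing most. Of 15 genes of the anaphase-promoting complex and its partners 10 rose, with Fbxo5 (3.08 ± 0.12), its inhibitor EMI1, ahead.

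By group mean, Ccnb1, Plk1 and Bub1 had the same order as the sum across the culture groups. Ccnb1, cyclin B1, the partner of CDK1, had 102 and 90.9 CPM in TGF+RA+VC, 135 and 133 in TGF+RA, 169 and 122 in TGF+VC, 222 and 175 in TGF, 226 and 221 in Th0 and 1.61 and 2.80 in naive libraries. Plk1 had 82.1 and 71.2 CPM in TGF+RA+VC, 107 and 98.5 in TGF+RA, 132 and 93.7 in TGF+VC, 179 and 135 in TGF, 204 and 197 in Th0 and 1.21 and 2.28 in naive libraries. Bub1 had 63.7 and 55.4 CPM in TGF+RA+VC, 80.3 and 76.7 in TGF+RA, 95.1 and 69.3 in TGF+VC, 119 and 106 in TGF, 121 and 137 in Th0 and 1.11 and 1.14 in naive libraries. For all 3 genes the naive libraries lay far below the rest, and both TGF+RA+VC libraries lay below both TGF libraries.

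Cdc20 had 75.9 and 82.1 CPM in TGF+RA+VC, 96.8 and 105 in TGF+RA, 122 and 89.7 in TGF+VC, 166 and 133 in TGF, 213 and 201 in Th0 and 5.64 and 5.91 in naive libraries. Ube2c had 106 and 103 CPM in TGF+RA+VC, 134 and 138 in TGF+RA, 184 and 131 in TGF+VC, 239 and 184 in TGF, 303 and 266 in Th0 and 1.61 and 1.97 in naive libraries. Top2a had 942 and 767 CPM in TGF+RA+VC, 1204 and 991 in TGF+RA, 1358 and 1054 in TGF+VC, 1569.9 and 1412 in TGF, 1538 and 1696 in Th0 and 25.4 and 32.5 in naive libraries. By group mean these 3 genes were ordered like the sum, with Th0 and TGF at the top and TGF+RA+VC lowest among the activated cultures. Cenpa had 68.8 and 78.8 CPM in TGF+RA+VC, 90.7 and 115 in TGF+RA, 116 and 86.5 in TGF+VC, 148 and 119 in TGF, 192 and 179 in Th0 and 20.5 and 23.4 in naive libraries, so that naive cells already held a measurable level of this centromere histone. Birc5 had 114 and 154 CPM in TGF+RA, 275 and 250.5 in Th0 and 2.32 and 2.18 in naive libraries. In Cenpa and Birc5 the neighbours TGF+RA and TGF+VC stood in the other order, with means of 103 and 101 CPM for Cenpa and 134 and 132 CPM for Birc5 and overlapping ranges. Pttg1 did not have the order of the sum: it had 19.6 and 18.6 CPM in TGF+VC, 17.6 and 14.6 in Th0 and, highest of these groups, 26.2 and 30.5 in naive libraries. Aurkb had 78.4 and 73.9 CPM in TGF+RA+VC and 129 and 99.8 in TGF+VC libraries. Bub3 had 149 and 157 CPM in TGF+RA+VC and 183 and 169 in TGF+VC libraries, and Mki67 had 722 and 593 CPM in TGF+RA libraries.

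TGF against Th0 cells asks what TGFβ adds to activation. Here 16 of 42 members fell and 26 did not pass, with a median log2 fold change of -0.27, while 11.6% of all tested genes were called lower and 14.5% higher (26.1% in all). Cdc20, the activator of the anaphase-promoting complex, had 166 and 133 CPM in TGF libraries, against 213 and 201 CPM in Th0 libraries. Cenpa, the histone H3 variant that marks centromeres, had 148 and 119 CPM, against 192 and 179 CPM. Neither gene's groups overlapped, and they fell 1.41-fold and 1.42-fold (-0.50 ± 0.13, edgeR adjusted p = 0.0107, and -0.51 ± 0.15, edgeR adjusted p = 0.0226). Spc24 of the NDC80 complex had the lowest value, -0.51 ± 0.11 (edgeR adjusted p = 0.0037).

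The 4 chromosomal passenger genes Aurkb, Birc5, Incenp and Cdca8 all fell in TGF against Th0 cells, by log2 fold changes of -0.26 for Incenp to -0.45 for Birc5. The members with the highest values, Pttg1 (0.03 ± 0.14), Kif11 (-0.02 ± 0.11), the motor that pushes spindle poles apart, and Prc1 (-0.09 ± 0.11), which bundles midzone microtubules, did not pass, and neither did Top2a (-0.15 ± 0.15) or Mki67 (-0.17 ± 0.13). The count of falls rests on single libraries: it was 1 without TGF replicate 2, 3 without Th0 replicate 1, 7 without Th0 replicate 2 and 15 without TGF replicate 1. It was also 9 in limma on log2(FPKM + 1) and 13 in DESeq2. In an edgeR fit of all 20 libraries of the first table it was 0, and 1 member had an unadjusted p under 0.05. With a replicate block, not taken here as pairing, the count was above all of these, as given in the closing section.

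Adding vitamin C to TGFβ (TGF+VC against TGF) lowered 19 of 42 members and left 23 below the threshold, with a median log2 fold change of -0.39; 7.99% of all tested genes were called lower and 8.84% higher (16.8% in all). Cdca8, the passenger protein borealin, had the lowest value (-0.62 ± 0.11, edgeR adjusted p = 0.00131), followed by Birc5 and Cdc20. Birc5 had 147 and 117 CPM in TGF+VC libraries, against 202 and 191 CPM in TGF libraries, and fell 1.51-fold (edgeR adjusted p = 0.00634). Its groups did not overlap, but the TGF+VC replicates differed from each other more than the TGF replicates did. Cdk1 had 149 and 127 CPM, against 205 and 186 CPM in TGF libraries (-0.52 ± 0.10, edgeR adjusted p = 0.0033).

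At the other end of the vitamin C comparison, Mki67 had 919 and 829.9 CPM in TGF+VC libraries, against 978 and 838 CPM in TGF libraries, overlapping ranges (-0.08 ± 0.13, edgeR adjusted p = 0.707). Neither Pttg1 (0.16 ± 0.13) nor Cenpf (-0.14 ± 0.16), a large outer kinetochore protein, passed. All 4 passenger genes fell again, while none of 2 chromosome structure genes and 1 of 6 cytokinesis genes (Racgap1, -0.39 ± 0.10) did. The count of falls was 2 without TGF replicate 1, 2 without TGF+VC replicate 2, 20 without TGF replicate 2 and 32 without TGF+VC replicate 1. It was 22 in DESeq2 and 16 in limma. In the edgeR fit of all 20 libraries it was 0, and 1 member had an unadjusted p under 0.05. With a replicate block, not taken here as pairing, the count was above all of these, as given in the closing section.

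Adding retinoic acid to TGFβ (TGF+RA against TGF) lowered 35 of 42 members and left 7 below the threshold (median log2 fold change -0.57), while 9.29% of all tested genes were called lower and 7.19% higher (16.5% in all). Aurkb had 90.1 and 102 CPM in TGF+RA libraries, against 163 and 149 CPM in TGF libraries. It had the lowest log2 fold change, -0.71 ± 0.12 (edgeR adjusted p = 7.05e-04), with Kif2c (-0.71 ± 0.16), a kinesin that depolymerises microtubules at centromeres, and Cdc25c (-0.69 ± 0.18) next to it. Bub3 had 159 and 177 CPM, against 215 and 204 CPM, and fell 1.26-fold (edgeR adjusted p = 0.0317), the smallest change among the members called. Those that did not pass were Cdc25b, Pttg1, Espl1, Cenpa, Cenpf, Cenpk and Top2a, with log2 fold changes of -0.60 for Cdc25b to -0.20 for Cenpk. The count of falls was 15 without TGF replicate 1, 21 without TGF+RA replicate 1 and 1 in the fit of all 20 libraries.

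With both supplements (TGF+RA+VC against TGF) 41 of 42 members fell, with a median log2 fold change of -0.92, against 19.2% of all tested genes called lower and 18.3% higher (37.5% in all). Birc5 had 89.0 and 92.4 CPM in TGF+RA+VC libraries, against 202 and 191 CPM in TGF libraries. It had the lowest value, -1.14 ± 0.13, 2.21-fold (edgeR adjusted p = 1.05e-05), followed by Cdk1 (-1.11 ± 0.10) and Cdc25b (-1.07 ± 0.20). Ube2c had 106 and 103 CPM, against 239 and 184 CPM, and Top2a 942 and 767 CPM, against 1569.9 and 1412 CPM in TGF libraries. Neither gene's groups overlapped, and both fell (-1.04 ± 0.15 and -0.83 ± 0.15, edgeR adjusted p = 1.37e-04 and 0.00139).

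Apart from Pttg1 the members moved within a narrow band under both supplements: 40 of 42 had log2 fold changes between -1.14 (Birc5) and -0.70 (Incenp), and Bub3 had -0.48 ± 0.10. Pttg1 had 14.3 and 15.8 CPM in TGF+RA+VC and 16.6 and 16.9 CPM in TGF libraries and did not pass (-0.18 ± 0.14, edgeR adjusted p = 0.317). Leaving out any 1 library of either group left 41 falls, and fitting all 20 libraries of the first table together left 8.

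Relative to each single supplement, the addition of the other gave unequal counts, which are not a test of the difference between them. Retinoic acid added to TGFβ and vitamin C (TGF+RA+VC against TGF+VC) lowered 36 members (median -0.54; 9.3% of all tested genes called lower and 5.81% higher, 15.1% in all). Cdc25b (-0.83 ± 0.20), Cenpe (-0.74 ± 0.14), a motor that carries chromosomes to the metaphase plate, and Mki67 (-0.69 ± 0.13) changed most. Mki67 had 559 and 532 CPM in TGF+RA+VC libraries, against 919 and 829.9 CPM in TGF+VC libraries, with no overlap. Bub3 (-0.21 ± 0.10), Cenpk (-0.31 ± 0.18) and Pttg1 (-0.34 ± 0.13) changed least and did not pass. The count of falls was 7 without TGF+VC replicate 1, 15 without TGF+RA+VC replicate 2 and 1 in the fit of all 20 libraries.

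Vitamin C added to TGFβ and retinoic acid (TGF+RA+VC against TGF+RA) lowered 7 members, Birc5 (-0.58 ± 0.13, edgeR adjusted p = 0.0133), Cdk1 (-0.49 ± 0.10), Spc25 (-0.48 ± 0.11), Ccna2 (-0.43 ± 0.11), Racgap1 (-0.43 ± 0.10), Nuf2 (-0.39 ± 0.11) and Cdca8 (-0.38 ± 0.11), while 3.22% of all tested genes were called lower and 4.31% higher (7.54% in all). The other 35 did not pass, among them Cenpk (-0.57 ± 0.18) and Cenpa (-0.49 ± 0.15), whose values were the next lowest after that of Birc5. The median over all 42 was -0.38, and the highest values were those of Pttg1 (0.07 ± 0.14), Cdc25c (-0.12 ± 0.19) and Bub3 (-0.15 ± 0.10). Cdk1 had 88.3 and 96.0 CPM in TGF+RA+VC libraries, against 119.5 and 137 CPM in TGF+RA libraries. The count was 1 without TGF+RA+VC replicate 1, 1 without TGF+RA+VC replicate 2 and 0 without TGF+RA replicate 2, where 18 members had an unadjusted p under 0.05 in edgeR. The count was 14 with no filter on low counts, 4 in limma on log2(FPKM + 1) and 8 in DESeq2. It was 0 in the edgeR fit of all 20 libraries, where 1 member had an unadjusted p under 0.05. With a replicate block, not taken here as pairing, it was above all of these, as given in the closing section.

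Whether vitamin C acted differently with and without retinoic acid was tested directly by the difference of the 2 vitamin C effects, from 8 libraries in the shared fit. In edgeR 0 of 42 members passed and 0 had an unadjusted p under 0.05, DESeq2 and limma also called 0, and 0.0177% of all tested genes passed. The differences ran from -0.23 (Cdc25b) to 0.24 (Cdca8) on the log2 scale with a median of 0.03. The 95% intervals are wide: that of Cdk1 was -0.28 to 0.34, that of Mki67 -0.59 to 0.18, the median width was 0.772, and over all members the bounds reached from -0.85 to 0.73. The unequal counts of 19 and 7 members are not a test of that difference.

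**Figure D2:**
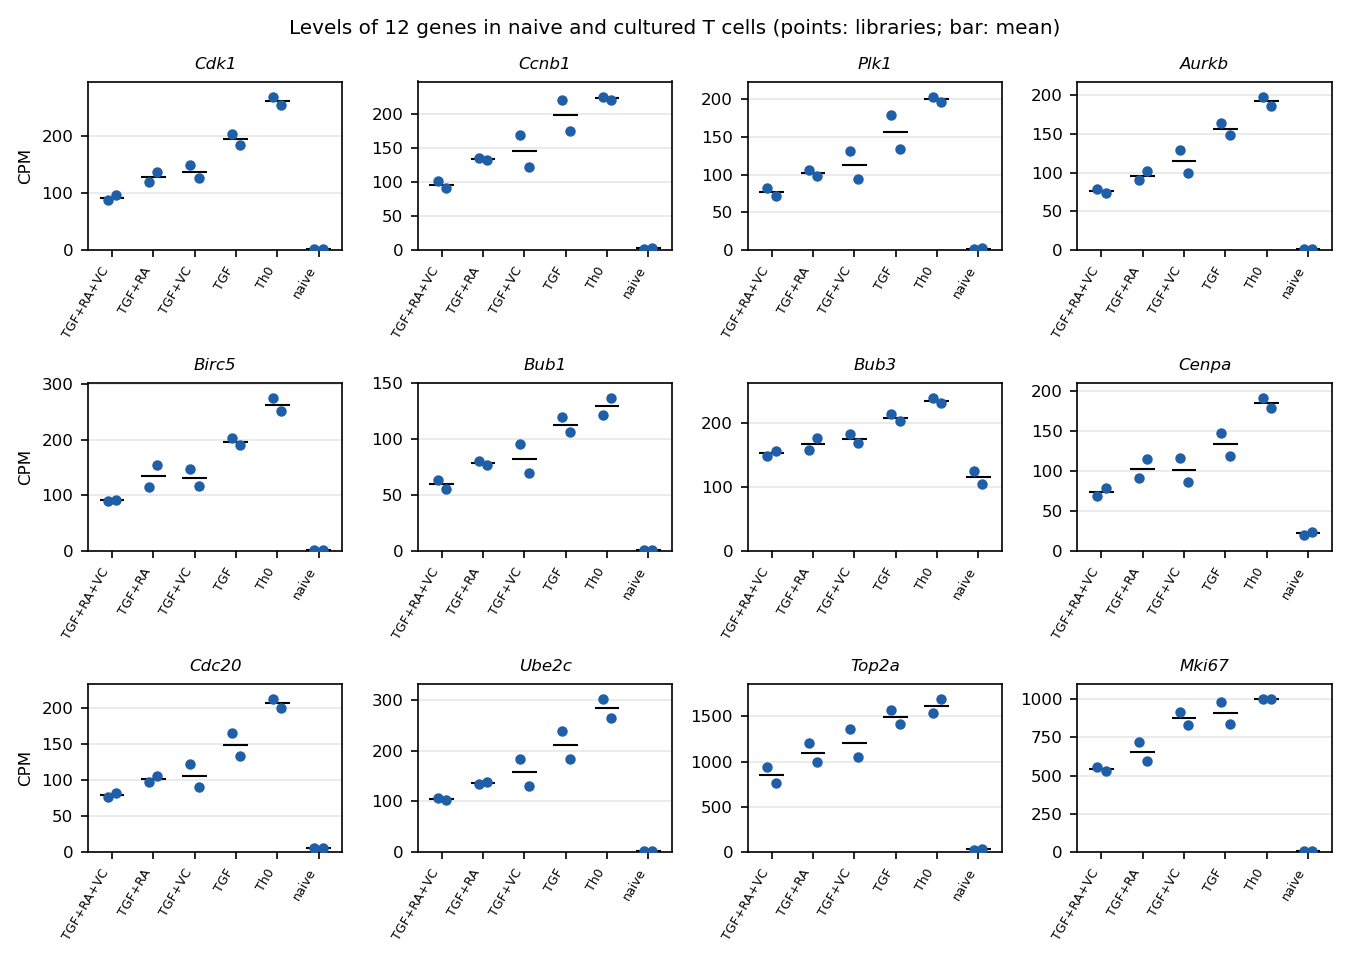
CPM of the 12 genes followed in every comparison, in the TGF+RA+VC, TGF+RA, TGF+VC, TGF, Th0 and naive libraries (points, n = 2 per group; bars, group means; linear axes from 0). Apart from Bub3 and Cenpa the naive points lie close to 0, and in all 12 panels the TGF+RA+VC points lie below both TGF points.

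Related lists were compared in TGF+RA+VC against TGF cells, where 19.2% of all tested genes were called lower. All 36 DNA replication genes fell (median -0.74), with Ccne1, cyclin E1 (-1.13 ± 0.10), and Cdc45 (-1.07 ± 0.10) lowest. Of the other kinetochore and centromere genes 27 of 32 fell (median -0.67), with Cenpw (-1.20 ± 0.16) and Cenph (-1.12 ± 0.18) lowest. Of condensin and cohesin genes 11 of 17 fell, and of the anaphase-promoting complex 5 of 15, among them Ube2s (-0.84 ± 0.10), the enzyme that extends its ubiquitin chains, and Fbxo5 (-0.68 ± 0.10). Medians of these 2 lists were -0.42 and -0.10.

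In the other comparisons between cultures the counts of the same lists stand against 11.6% of all tested genes called lower in TGF against Th0, 7.99% in TGF+VC against TGF, 9.29% in TGF+RA against TGF, 9.3% in TGF+RA+VC against TGF+VC and 3.22% in TGF+RA+VC against TGF+RA cells. DNA replication genes fell in 21 of 36 cases in TGF against Th0, 22 in TGF+VC against TGF, 27 in TGF+RA against TGF, 12 in TGF+RA+VC against TGF+VC and 6 in TGF+RA+VC against TGF+RA cells. The other kinetochore and centromere genes fell in 8, 8, 13, 12 and 3 of 32 cases in the same 5 comparisons, in that order, condensin and cohesin genes in 2, 6, 7, 5 and 1 of 17, and genes of the anaphase-promoting complex in 5, 3, 3, 1 and 0 of 15 (4 of them with an unadjusted p under 0.05 in the last). Some of these counts, such as 2 of 17 condensin and cohesin genes in TGF against Th0 and 1 of 15 genes of the anaphase-promoting complex in TGF+RA+VC against TGF+VC cells, are near or below those shares. Cenpm (-0.81 ± 0.17) led the kinetochore list in TGF against Th0, Oip5 (-0.66 ± 0.14), a centromere assembly factor, in TGF+RA against TGF, and Cenpw in TGF+VC against TGF (-0.67 ± 0.15) and in TGF+RA+VC against TGF+RA cells (-0.77 ± 0.16). In this last comparison 3 kinetochore genes passed.

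Transcripts listed as markers of other cells also differed between the cultures. Summed B cell markers (4 genes) were 11.6 to 14.6 CPM in TGF+RA+VC, 5.81 to 6.05 in TGF+RA, 4.52 to 6.80 in TGF+VC and 3.05 to 3.47 in TGF libraries, with Ms4a1 and Pax5 at 0 in all 4 groups. CD8 T cell markers (2 genes) were 39.0 to 42.1 CPM in TGF+RA+VC, 11.02 to 11.6 in TGF+RA, 23.3 to 28.2 in TGF+VC and 13.2 to 15.4 in TGF libraries. Erythroid markers (4 genes, with Slc4a1 at 0 in all 4 groups) were 8.66 to 16.3 CPM in TGF+RA+VC, 38.8 to 71.3 in TGF+RA, 49.0 to 69.0 in TGF+VC and 130.2 to 179 in TGF libraries. The 4 NK and innate lymphoid markers were at 0 in all 4 groups. Myeloid and dendritic markers (7 genes, with Csf1r at 0) were 66.4 to 126 CPM, invariant NKT markers (3 genes) 53.2 to 91.7 CPM, plasma and germinal centre B cell markers (3 genes) 255 to 574 CPM and immature thymocyte markers (4 genes, with Rag1 at 0) 1.55 to 30.2 CPM across these libraries. B cell, CD8 and thymocyte sums were highest, and the erythroid sum lowest, in the TGF+RA+VC libraries, where the members were lowest; their part in the result was not tested.

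Among 23 regulators of mitotic genes, 10 fell and 1 rose in TGF+RA+VC against TGF cells, where 19.2% of all tested genes were called lower and 18.3% higher. Mybl2 (-1.03 ± 0.10) and E2f8 (-0.997 ± 0.10), an atypical E2F repressor, fell most. Foxm1, the forkhead factor of mitotic genes, also fell (-0.90 ± 0.17, edgeR adjusted p = 0.00152), and the 1 that rose was Rbl2 (0.49 ± 0.08, edgeR adjusted p = 3.03e-04). Rbl2 fell in Th0 against naive cells (-1.43 ± 0.08, edgeR adjusted p = 7.00e-10) and rose in TGF against Th0 (0.52 ± 0.08, edgeR adjusted p = 4.46e-04) and in TGF+VC against TGF cells (0.46 ± 0.08, edgeR adjusted p = 0.00181). These comparisons share libraries and are not independent of each other. The rise of Rbl2 was of like size with vitamin C only (0.46) and with both supplements (0.49). Any part of Rbl2 in the levels of the members was not tested. Values of Rbl2 in the remaining comparisons between cultures are not given here.

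In ex vivo Treg cells the targeted genes come first. Tet2 had 16.5, 12.7, 15.9 and 12.01 CPM in the Tet2/3-deficient libraries, against 14.97, 14.2, 9.96 and 15.7 CPM in the control libraries, and Tet3 had 113, 96.3, 98.4 and 114 CPM, against 161, 132, 126 and 172 CPM. Counts over whole genes do not show the loss of the floxed exons, and of the pair only Tet3 was lower in every deficient library than in every control library.

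Tet2/3-deficient against control Treg cells asks what the loss of TET2 and TET3 does to the members, and most had higher values in the deficient cells. Every deficient library lay above every control library for 38 of 42 members, against 21% of all 11679 tested genes that separated in this direction. In edgeR 15 rose and 27 did not pass (34 had an unadjusted p under 0.05), while 16.7% of all tested genes were called higher and 15.8% lower (32.5% in all). The median log2 fold change was 1.25, against 0.00072 over all genes. The mean summed level was 2.01 times that of controls.

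Of the 8 centromere and kinetochore genes, 7 rose in Tet2/3-deficient cells, as did 2 of 5 spindle checkpoint genes. Bub1, the checkpoint kinase that acts at the kinetochore, had 30.8, 33.9, 30.7 and 29.1 CPM in the deficient libraries S5 to S8, against 16.3, 4.27, 12.8 and 3.50 CPM in the control libraries S1 to S4. Its lowest deficient library held 29.1 CPM and its highest control library 16.3 CPM, and it had the largest log2 fold change, 1.73 ± 0.48, 3.32-fold (edgeR adjusted p = 0.031). Cenpk had 9.48, 9.42, 9.79 and 9.26 CPM, against 5.30, 2.70, 4.04 and 1.15 CPM in control libraries (1.501 ± 0.34, edgeR adjusted p = 0.00897). Cenpa had 86.1, 113, 101 and 79.8 CPM, against 71.4, 53.5, 69.7 and 47.2 CPM, a smaller and tighter rise (0.61 ± 0.16, edgeR adjusted p = 0.0156).

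The other kinetochore genes that passed, Cenpe, Cenpf, Ndc80, Spc24 and Spc25, rose between 1.88-fold (Ndc80) and 2.75-fold (Spc25), and Nuf2, the third highest value, did not pass (1.48 ± 0.51, edgeR adjusted p = 0.0639). Beside these and Bub1 the genes that rose were Ccnb2 (1.33 ± 0.36), a B-type cyclin, Cdc25b (0.64 ± 0.14), Mad2l1 (0.93 ± 0.27), the checkpoint protein that holds CDC20, and Tpx2 (1.43 ± 0.41), which activates Aurora A on the spindle, with the cytokinesis genes Kif23 (1.16 ± 0.37), Racgap1 (0.97 ± 0.28) and Ect2 (1.14 ± 0.30). None of the 4 passenger genes passed, although all 4 separated between groups. Birc5 had 59.6, 75.9, 64.7 and 54.9 CPM in deficient libraries, against 37.8, 14.4, 35.4 and 9.02 CPM in control libraries (1.37 ± 0.45, edgeR adjusted p = 0.0544).

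Aurkb, Plk1, Ccnb1, Cdc20, Ube2c and Top2a separated in the same way without passing. Aurkb had 51.6, 49.1, 41.02 and 40.6 CPM in deficient libraries, against 32.6, 8.05, 25.98 and 5.06 CPM in control libraries (1.32 ± 0.56, edgeR adjusted p = 0.114). Plk1 had 42.5, 42.9, 37.6 and 33.9 CPM, against 23.4, 5.59, 24.1 and 4.31 CPM (1.42 ± 0.56, edgeR adjusted p = 0.0956), and Ccnb1 57.1, 60.9, 50.1 and 41.1 CPM, against 33.9, 10.2, 34.3 and 7.70 CPM in control libraries (1.25 ± 0.50, edgeR adjusted p = 0.101). For each of these the control libraries S1 and S3 held more than S2 and S4. Cdc20 had 55.6, 57.0, 55.0 and 49.4 CPM in deficient libraries, against 40.5, 15.3, 31.0 and 12.1 CPM in control libraries (1.102 ± 0.37). Ube2c had 45.1, 46.9, 44.7 and 36.1 CPM, against 30.1, 12.1, 30.0 and 8.33 CPM (1.07 ± 0.42). Top2a had 357, 329, 299 and 287 CPM, against 206, 70.2, 190.3 and 56.2 CPM (1.25 ± 0.44, edgeR adjusted p = 0.0697), and its highest control library lay below its lowest deficient one.

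Cdk1 had 60.2, 50.4, 47.3 and 42.7 CPM in the deficient libraries, against 30.9, 7.48, 32.0 and 4.60 CPM in the control libraries, a log2 fold change of 1.39 ± 0.60 that did not pass (edgeR adjusted p = 0.121). Mki67 had 132, 111, 82.8 and 98.6 CPM, against 84.3, 31.2, 56.8 and 25.5 CPM, and 1 control library (S1) lay just above the lowest deficient library (S7). The other members with overlap were Anln, Bub3 and Pttg1. Bub3 had 165, 156, 154 and 152 CPM, against 152, 149, 177 and 145 CPM (-0.03 ± 0.07), and Pttg1 28.2, 27.5, 38.8 and 33.2 CPM, against 28.2, 36.3, 38.8 and 35.9 CPM in control libraries (-0.16 ± 0.13), and neither passed. Incenp, the scaffold of the passenger complex, had the third lowest value (0.56 ± 0.21, edgeR adjusted p = 0.0715).

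**Figure D3:**
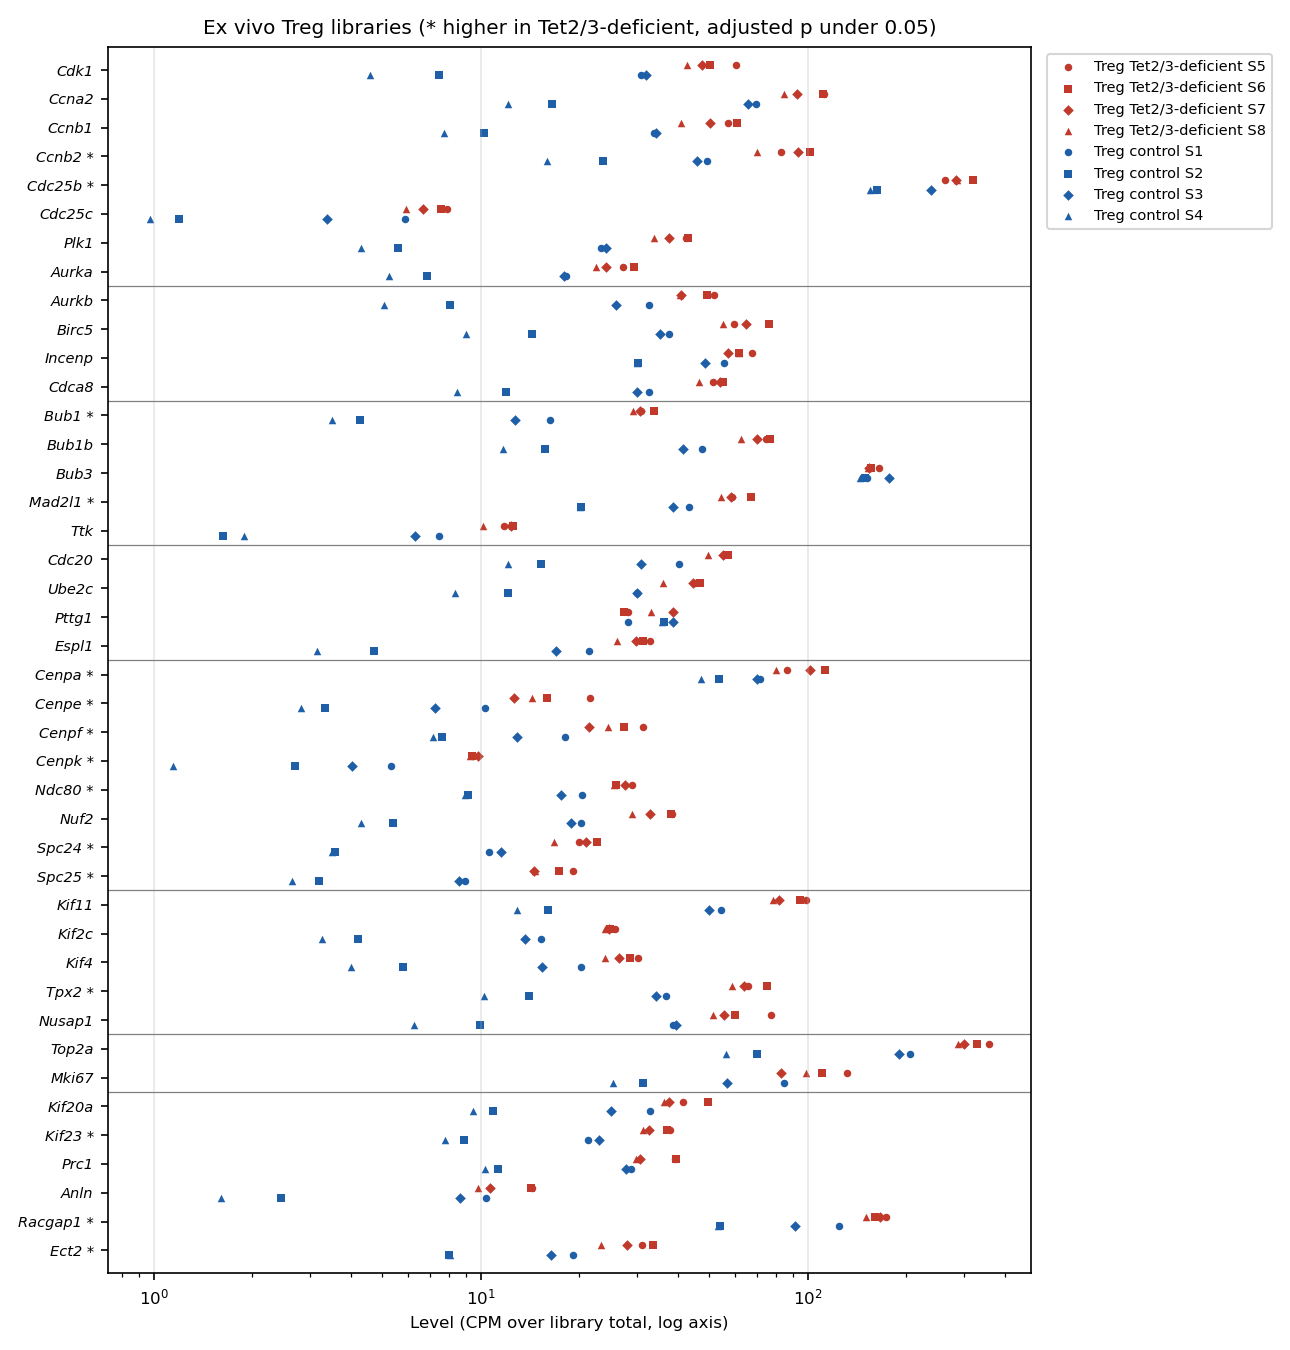
CPM (log axis) of each of the 42 genes in the 4 Tet2/3-deficient libraries (red, S5 to S8) and the 4 control libraries (blue, S1 to S4), grouped by role, with an asterisk at the 15 genes that rose. Deficient libraries lie to the right of all control libraries in 38 rows, and control S1 and S3 lie nearer to them than control S2 and S4 do in most rows.

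The control libraries were themselves spread. Control S1 and S3 held 1796 and 1736 CPM of summed members, and S2 and S4 held 894 and 787 CPM, while the 4 deficient libraries held 2361 to 2800 CPM. The DNA replication list had the same pattern, with 3736, 4107, 3925 and 3969.9 CPM in the deficient libraries S5 to S8, against 2791, 1717, 2614 and 1676 CPM in the control libraries S1 to S4. Summed markers of B cells (4 genes) were 56.0, 55.0, 41.9 and 39.3 CPM in deficient libraries, against 81.3, 41.7, 98.2 and 44.7 CPM in control libraries, highest in S1 and S3, and none of the 4 was at 0. Myeloid and dendritic markers (7 genes) were 133, 192, 232 and 227 CPM, against 139, 138, 149 and 140.4 CPM, erythroid markers (4 genes) 197 to 407 CPM, against 293 to 712 CPM, NK and innate lymphoid markers (4 genes, with Klra8 at 0 in deficient libraries) 8.43 to 12.4 CPM, against 3.71 to 6.06 CPM, and CD8 T cell markers (2 genes) 3.37 to 5.30 CPM, against 24.8 to 28.5 CPM. Their part in the result was not tested.

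Calls in the Tet2/3-deficient comparison depended on single libraries: 4 members rose without S5, 4 without S6, 5 without S7 and 7 without S8 of the deficient libraries, and 27 without control S1, 18 without S3, 13 without S4 and 5 without S2. DESeq2 called 28, limma on log2(FPKM + 1) called 32, the fit of all 20 libraries called 39 and edgeR with no filter on low counts called 6. Among the related lists, 32 of 36 DNA replication genes rose (median 1.005), with Ccne2, cyclin E2 (1.91 ± 0.39), highest. Of the other kinetochore and centromere genes 15 of 32 rose (median 1.09; Kntc1, 1.66 ± 0.41, and Cenpi, 1.51 ± 0.43), and of condensin and cohesin genes 8 of 17 did (median 0.24). Of 23 regulators 4 rose and 3 fell, shares near the 16.7% and 15.8% of all tested genes. Those that rose included the E2F partner Tfdp1 (0.83 ± 0.11, edgeR adjusted p = 2.08e-04), and those that fell included Rbl2 (-0.86 ± 0.07, edgeR adjusted p = 1.10e-05). Foxm1 (1.18 ± 0.43) and Mybl2 (1.55 ± 0.54) did not pass (edgeR adjusted p = 0.0733 and 0.0643).

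Control Treg against naive cells compares Treg cells of the body with resting conventional cells. These differ also in the age and floxed alleles of the mice and possibly in the library batch. In edgeR 24 of 42 members rose and 18 did not pass (median log2 fold change 2.70), while 28.6% of all 11738 tested genes were called higher and 26.3% lower (54.9% in all). Aurkb had 32.6, 8.05, 25.98 and 5.06 CPM in control Treg libraries S1 to S4, against 0.705 and 1.04 CPM in naive libraries (4.20 ± 1.32, edgeR adjusted p = 0.0478). The 4 Treg libraries lay above both naive libraries but ranged over more than 6-fold among themselves. Ccnb2 rose by 4.04 ± 0.77, and Cdc25c had 170 counts over the 4 Treg libraries, against 1 over the naive libraries, a ratio per total of 53.1 with an exact 95% interval of 9.41 to 2111 for counting error only.

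Bub3 rose by little in control Treg against naive cells (0.29 ± 0.11, edgeR adjusted p = 0.047), and Kif23 (0.04 ± 0.54), a kinesin of the central spindle, and Pttg1 (0.16 ± 0.14) did not pass. Without naive replicate 1, or without naive replicate 2, 4 members rose, and the count was 14 without control S1, 15 without S3, 29 without S2 and 39 without S4. DESeq2 called 39, the fit of all 20 libraries 39 and edgeR with no filter 11. Against library totals without scaling factors the median of all genes shifted to 0.15, and 66% of calls were then higher, against 52.1% with scaling factors.

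Control Treg against TGF cells compares ex vivo with induced Treg cells, again with mice of another age and genotype and possibly another library batch. Here 41 members fell and 1 rose (median log2 fold change -3.15), while 29.1% of all 11831 tested genes were called lower and 32.3% higher (61.4% in all). Mki67 had 84.3, 31.2, 56.8 and 25.5 CPM in control Treg libraries, against 978 and 838 CPM in TGF libraries, and fell 19.0-fold (-4.25 ± 0.54, edgeR adjusted p = 0.0023). Every control Treg library lay below both TGF libraries. Cenpe (-4.05 ± 0.52) and the cytokinesis protein anillin, Anln (-3.74 ± 0.73), followed, while Bub3 (-0.47 ± 0.10) and Cdc25b (-0.83 ± 0.21) fell least. Pttg1 was the member that rose, with 28.2, 36.3, 38.8 and 35.9 CPM in control Treg libraries, against 16.6 and 16.9 CPM in TGF libraries (1.014 ± 0.15, edgeR adjusted p = 2.14e-04). The count of falls was 24 without TGF replicate 1. Of the related lists, 36 of 36 DNA replication genes and 28 of 32 other kinetochore and centromere genes fell in control Treg against TGF cells, and 16 and 12 rose in control Treg against naive cells, where 28.6% of all tested genes were called higher. Summed B cell markers were 41.7 to 98.2 CPM in control Treg libraries, against 3.05 to 3.47 CPM in TGF and 2.01 to 2.80 CPM in naive libraries, and erythroid markers 293 to 712 CPM, against 130.2 to 179 CPM and 1.11 to 2.28 CPM. Their part in either result was not tested.

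In the restimulation experiment, restimulated Foxp3-negative and TGF day 6 Foxp3-positive cells differ in stimulation, in the sort and, as described above, in time in culture. These differences cannot be told apart. In edgeR 28 members fell, 1 rose and 13 did not pass (median log2 fold change -0.78), in a comparison where 35.2% of all 11252 tested genes were called lower and 33.6% higher (68.8% in all). Ube2c had 65.3, 103 and 42.2 CPM in restimulated libraries, against 211, 200 and 207 CPM in TGF day 6 libraries. Its restimulated libraries varied by more than 2-fold, yet all lay below every TGF day 6 library, and its log2 fold change was the lowest, -1.63 ± 0.34 (edgeR adjusted p = 0.0116). Mki67 had 190.0, 209.8 and 185 CPM, against 503, 428 and 456 CPM, with groups far apart, and fell (-1.32 ± 0.07, edgeR adjusted p = 1.51e-10).

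Cdk1 had 76.2, 94.96 and 48.6 CPM in restimulated libraries, against 174, 162 and 145 CPM in TGF day 6 libraries (-1.21 ± 0.26, edgeR adjusted p = 0.0114). Birc5 had 81.0, 98.6 and 62.7 CPM, against 168, 169 and 162 CPM (-1.12 ± 0.16), and Aurkb 56.9, 70.7 and 39.7 CPM, against 112, 105 and 95.3 CPM (-0.98 ± 0.22). Cdc20 had 58.0, 80.3 and 42.1 CPM, against 135, 116 and 118 CPM (-1.104 ± 0.25), and Cenpa 70.0, 89.9 and 60.9 CPM, against 139, 147 and 142 CPM (-1.03 ± 0.13). All 5 genes fell, with every restimulated library below every TGF day 6 library. Plk1 had 58.2, 85.8 and 42.2 CPM, against 121, 105 and 107 CPM (-0.91 ± 0.27), Bub1 40.8, 50.3 and 33.1 CPM, against 79.2, 66.1 and 61.6 CPM (-0.81 ± 0.16), and Bub3 136, 154 and 116 CPM, against 167, 161 and 158 CPM (-0.34 ± 0.08), and these also fell. Ccnb1 had 68.4, 101 and 44.2 CPM, against 150.4, 127 and 121 CPM in TGF day 6 libraries, and did not pass (-0.97 ± 0.33, edgeR adjusted p = 0.0543).

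Top2a had 660.5, 762 and 510.1 CPM in restimulated libraries, against 956, 779 and 703 CPM in TGF day 6 libraries, overlapping ranges with a change that did not pass (-0.41 ± 0.19, edgeR adjusted p = 0.102). Cenpe (-1.38 ± 0.19) and Aurka (-1.33 ± 0.27), the kinase of spindle poles, had the next lowest values to that of Ube2c. All 4 passenger genes, all 5 checkpoint genes and 7 of 8 kinetochore genes fell, against 1 of 6 cytokinesis genes (Kif23, -0.74 ± 0.16). Racgap1 (0.09 ± 0.09), Pttg1 (0.06 ± 0.11), Ect2 (-0.17 ± 0.21) and Anln (-0.22 ± 0.24) did not pass. Groups did not overlap for 30 members that were lower, against 32.4% of all tested genes, and for 1 that was higher, against 40.4%.

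The member that rose on restimulation was Cdc25b, with 281, 295 and 258 CPM in restimulated libraries, against 176, 159 and 159 CPM in TGF day 6 libraries, without overlap (0.68 ± 0.06, 1.60-fold, edgeR adjusted p = 1.37e-07). Its relative Cdc25c had 6.38, 10.3 and 5.48 CPM, against 16.9, 15.2 and 16.8 CPM, and fell (-1.20 ± 0.18, edgeR adjusted p = 1.50e-04). Pttg1 stayed between 13.4 and 18.3 CPM in all 6 libraries. Without restimulated replicate 3, Racgap1 also passed, higher by 0.19 (adjusted p = 0.0317, edgeR).

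**Figure D4:**
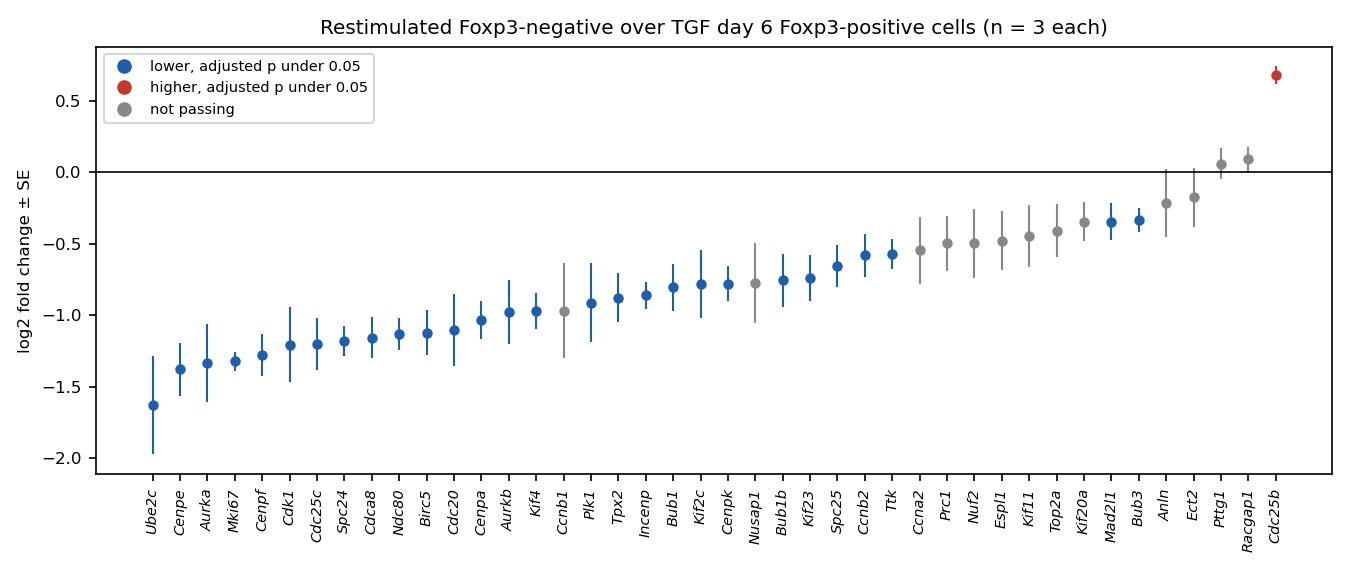
Log2 fold change (restimulated Foxp3-negative over TGF day 6 Foxp3-positive, n = 3 each) with its SE for the 42 genes, in order. Blue points are the 28 genes that fell, the red point is Cdc25b at 0.68, and grey points did not pass.

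Of the related lists, 29 of 36 DNA replication genes fell and 1 rose in restimulated cells (median -0.47; Rfc3 lowest, -1.04 ± 0.09), 24 of 32 other kinetochore and centromere genes fell (median -0.46; Cenpp, -1.58 ± 0.15), and condensin and cohesin genes were divided, with 5 higher and 7 lower of 17. Of 23 regulators 7 rose and 5 fell. Beside 33.6% of all tested genes called higher and 35.2% lower, the shares of condensin and cohesin genes in both directions and of regulators that rose are near those of all genes. Among the regulators E2f1 (-0.83 ± 0.08) was lowest and Rbl2 (0.64 ± 0.07) highest. Summed B cell markers were 1.096 to 2.02 CPM in restimulated libraries, against 2.15 to 3.38 CPM in TGF day 6 libraries, with Ms4a1 and Pax5 at 0 in both. Erythroid markers were 21.6 to 27.2 CPM, against 65.9 to 96.9 CPM, and plasma and germinal centre B cell markers 141 to 162 CPM, against 706 to 780.1 CPM. These sums were lower in restimulated libraries, as the members were, and their part in the result was not tested.

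**Figure D5:**
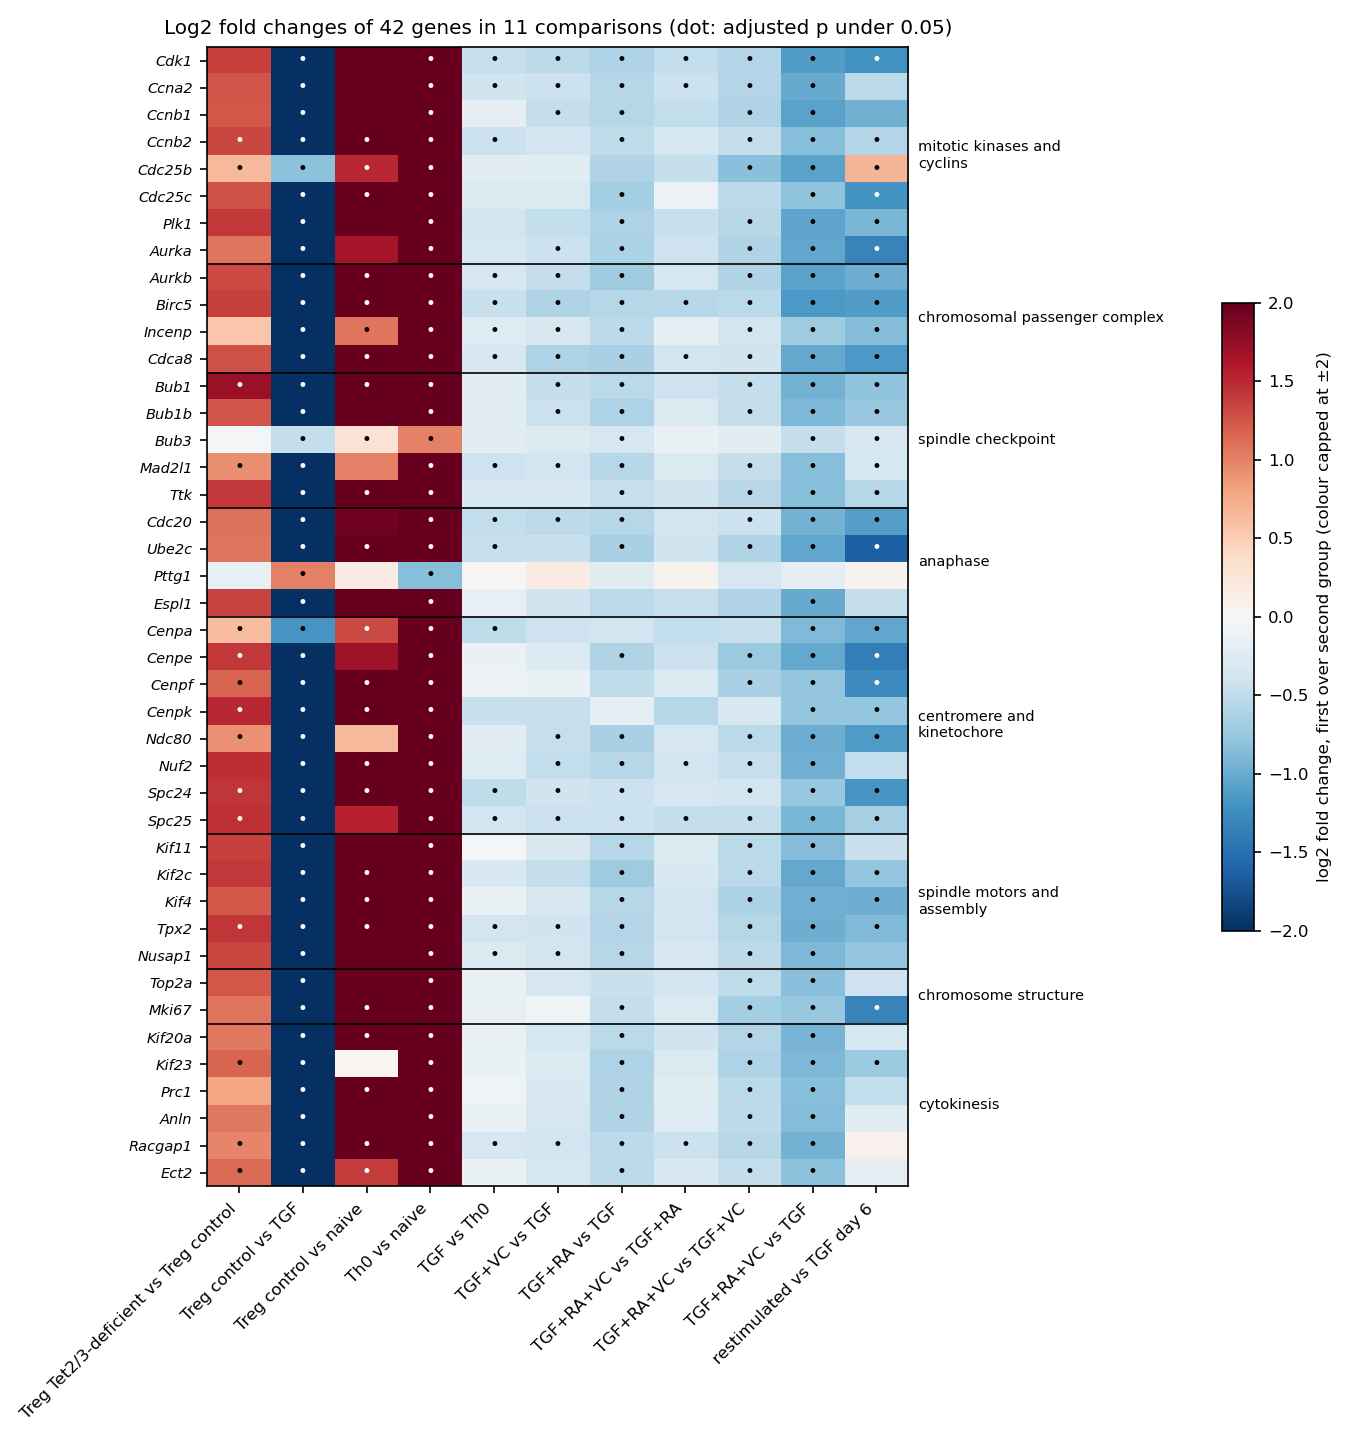
Log2 fold changes of the 42 genes (rows, grouped by role) in 11 comparisons (columns), red for higher and blue for lower in the first-named group, colours capped at 2 in either direction, with a dot where the adjusted p is under 0.05. Most rows share 1 direction in each column. Pttg1 and, on restimulation, Cdc25b stand out from it, and Bub3 stands out mainly by the small size of its changes.

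Across the 11 comparisons the exceptions recurred in the same few genes. Pttg1 fell where the other 41 rose (Th0 against naive), rose where the other 41 fell (control Treg against TGF) and did not pass in the other 9 comparisons. Comparisons that share libraries are not independent, and Th0 against naive and restimulation against TGF day 6 share none. Bub3 was called in 6 of the 11 comparisons, each time in the direction of the median member, with log2 fold changes between -0.48 (TGF+RA+VC against TGF) and 1.001 (Th0 against naive). The 5 genes without CHR or CCAAT letters in their promoter entries moved by unequal amounts: Birc5, Nuf2, Nusap1 and Mad2l1 had log2 fold changes of -1.14, -0.96, -0.90 and -0.86 in TGF+RA+VC against TGF cells, and Pttg1 had -0.18.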

How the data were processed

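Polyadenylated RNA was made into stranded TruSeq libraries, per the labels' protocols. Per the submitters' processing notes, the build was mm9 and the tools were TopHat2 2.1.1, Trim Galore 0.4.2, bcl2fastq 2.20.0.442, Picard 2.5.0, SAMtools 1.7, edgeR 3.26.6 and R 3.6.1; the counting tool, its strand setting and the annotation are not given in the sources used here. The authors deposited raw counts and FPKM values per gene in 2 tables, of 20 and 6 libraries, which were tested separately. Levels printed here are CPM over the library total of the deposited counts, and FPKM were used between genes.

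Counts were tested with edgeR 4.0.16 (R 4.3.3): filterByExpr, TMM factors, robust quasi-likelihood fit, Benjamini-Hochberg adjustment over all genes tested, threshold 0.05. The culture and naive libraries shared 1 fit (12 libraries, 6 residual degrees of freedom, 11287 genes); the comparisons with ex vivo Treg cells (11679, 11738 and 11831 genes) and the restimulation (11252 genes) each had their own. All 42 members passed the filter in every fit. Errors of log2 fold changes are SE. The script was tested on simulated data with known changes. DESeq2 1.42.0, limma 3.58.1 on log2(FPKM + 1), other scalings, no filter, a replicate block, a fit of all 20 libraries and leaving out each library were alternatives; library totals without scaling factors were added after seeing the data. No replicate pair agreed within sampling noise (chi-square per degree of freedom 2.29 to 23.6).

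The members and lists were chosen with earlier results of these data known. Per-library values were followed for 12 members, and each comparison also names its 3 highest and 3 lowest members, members called against the median and the 2 largest called changes of a related list; other genes named were chosen after their values were seen. Some marker genes are not reported here and stand outside the summed marker levels.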

Additional observations from a re-analysis of the deposited data

Results flagged for a closer look

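Among 86 groups of 4 ex vivo libraries checked for a library far from the others (the 42 members and their sum in 2 genotypes), 1 was flagged. Cdc25b had 237 CPM in control Treg library S3, against 155, 162 and 163 CPM in the other control libraries, and the gap was 0.905 of the range of the group, above the 95% critical value of the Dixon test for groups of 4. Chance flags about 1 in 20 groups.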

How the results depend on the processing

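Of the members followed in all groups, no called change reversed under any alternative; of their values 831 stayed on the same side of the threshold, 59 passed only in the alternative and 70 only in the main setting (610, 25 and 109 when a library was left out, where a group of 2 keeps 1 library that is assumed to vary like the others). Members called lower numbered, with the main count first: TGF against Th0, 16, with 9 in limma and 0 in the fit of all 20 libraries (1 at an unadjusted p under 0.05); TGF+VC against TGF, 19, with 0 in that fit (1 unadjusted); TGF+RA against TGF, 35, with 1; TGF+RA+VC against TGF+VC, 36, with 1; TGF+RA+VC against TGF, 41, with 8; and TGF+RA+VC against TGF+RA, 7, with 14 without a filter, 4 in limma and 0 in that fit (1 unadjusted). Members called higher were 15 in Tet2/3-deficient against control Treg cells, with 6 without a filter, 28 in DESeq2, 32 in limma and 39 in the fit of all 20 libraries, and 24 in control Treg against naive cells, with 11 without a filter, 39 in DESeq2 and 39 in that fit. The cause was not tested.

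Leaving out 1 library gave 1 to 15 in TGF against Th0, 2 to 32 in TGF+VC against TGF, 15 to 35 in TGF+RA against TGF, 0 to 9 in TGF+RA+VC against TGF+RA, 7 to 38 in TGF+RA+VC against TGF+VC, 4 to 27 in Tet2/3-deficient against control Treg, 4 to 39 in control Treg against naive and 24 to 41 in control Treg against TGF; in restimulated against TGF day 6 cells it gave 20 to 38 lower and 1 to 2 higher. The median difference of the vitamin C effects was 0.03 and turned to -0.03, -0.08 and -0.15 without TGF+RA+VC replicate 1, TGF replicate 1 and TGF+VC replicate 2.

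Replicate numbers were not taken to pair the libraries: same-numbered restimulation libraries correlated at 0.08, 0.10 and 0.20, each best with its own number, and the culture groups at 0.01 to 0.42 with only 2 numbers. With the replicate block, members called lower were 34 in TGF+VC against TGF, 27 in TGF+RA+VC against TGF+RA, 22 in TGF against Th0 and 31 on restimulation. No paired analysis was possible because the ex vivo Treg columns carry numbers that match no sample label, for the comparisons with those cells.

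Calls over all genes were 851 in TGF+RA+VC against TGF+RA, with 1363 under the replicate block, and 2 for the difference of the vitamin C effects, with 25 without a filter, 17 in DESeq2, 23 in limma, 26 under the block and 1 to 11 with a library left out. With a library left out, they were 1480 to 1945 of 2943 in TGF against Th0, 771 to 1001 of 1900 in TGF+VC against TGF, as low as 795 of 1860 in TGF+RA against TGF, 424 of 851 in TGF+RA+VC against TGF+RA, 819 of 1706 in TGF+RA+VC against TGF+VC and 2811 of 4233 in TGF+RA+VC against TGF. The share of calls that were higher was 62.3% in limma and 51.4% in edgeR for Tet2/3-deficient against control Treg cells, and 65.6% in limma and 52.1% in edgeR for control Treg against naive cells.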
